A study of Mus musculus with 12 samples.

Results

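The response of wild-type mouse embryonic fibroblasts (MEFs) to the iron chelator 2,2'-dipyridyl (DP) was measured on 6 of the 12 microarrays of the study, chosen by genotype from the sample labels. MEF lines 3, 4 and 5 each gave 1 array after 3 h with 100 µM DP and 1 array after 3 h with ethanol, the solvent. The other 6 arrays were from dKO MEFs, which lack the acetyltransferases CBP and p300. The primary cultures came from e14.5 embryos on a mixed C57Bl/6 and 129Sv (F1) background and were used at passage 4. All cultures, wild type included, had been exposed for 16 h, under 3% oxygen, to an adenovirus carrying Cre (multiplicity of infection 100). They were held at 3% oxygen for 48 h more and in normoxia with 5% carbon dioxide for 24 h before treatment. The ethanol cultures were thus virus-exposed cells 24 h out of low oxygen. Values are log2 RMA signals, a change is the mean over the 3 lines of DP minus ethanol, and the value after ± is its SE from limma.

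DP binds ferrous iron. Prolyl hydroxylases of the Egln family need iron, oxygen and 2-oxoglutarate to mark the alpha subunits of hypoxia-inducible factor (HIF) for capture by Vhl and destruction, so chelation stabilises HIF without a fall in oxygen. HIF, a dimer of an alpha subunit with Arnt, binds DNA at a short core motif and activates genes for glucose uptake, glycolysis, glycogen storage, blood vessel growth and pH control. The same chelation can reach other iron-dependent dioxygenases that act on histones, DNA, RNA and collagen, and it lowers the iron that cells sense through transferrin receptor mRNA.

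Array medians of the 6 wild-type arrays lay between 3.88 and 3.93. Fibroblast identity was clear on every array: the 14 marker genes had a mean level between 10.39 and 10.50 in ethanol and between 10.41 and 10.58 under DP, and limma called none of them (0 at an unadjusted p under 0.05). The ethanol array of line 5 stood apart, with a mean correlation to the other ethanol arrays of 0.990, against 0.993 for each of those. On it 302 genes read at least 1 log2 below the mean of the other ethanol arrays, and 7 of these were called as rises. The DP array of line 5 carried hemoglobin RNA. Hbb-y, the embryonic beta-type globin, read 2.68, 2.79 and 2.91 in ethanol and 2.79, 2.79 and 7.55 under DP in lines 3, 4 and 5, and Hba-a1 read 3.87, 4.63 and 4.19 and 3.95, 3.93 and 7.06. Both globin genes were looked up through the erythroid marker list, and neither was called. The beta-actin 3' minus 5' signal, a measure of RNA integrity and labelling, was 0.228 to 0.247 in ethanol and 0.279 to 0.378 under DP, without overlap, while the same measure for GAPDH overlapped.

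Of 17097 genes tested, limma called 807 (4.72%), with p values adjusted by Benjamini-Hochberg and a threshold of 0.05. DP raised 531 genes (3.11%) and lowered 276 (1.61%). Large changes were nearly all rises. At least 2-fold changes numbered 224 up and 20 down, at least 4-fold changes 56 up and 1 down, and all 14 changes of at least 8-fold were rises. The median change was 0.89 among genes that rose, −0.62 among genes that fell and −0.03 over all genes. All 807 called genes moved the same way in the 3 lines, as did 39.4% of all genes. For 782 of them the ethanol and DP arrays did not overlap, which was the case for 22.6% of all genes. Calls were scarce at both ends of the signal range. Of the 4884 genes with an ethanol mean up to 3.5, 35 rose and 1 fell, whereas of the 2790 genes between 5 and 7, 170 rose and 89 fell, and 2 of the 422 genes above 11 were called. The shares were 6.09% and 3.19% between 5 and 7 and 4.31% and 3.46% between 7 and 9. The shares of all genes set beside the lists below include the dim genes. With line 3, 4 or 5 left out 387, 430 and 447 genes were called, and with dKO line 1, 5 or 6 left out, which changes only the shared spread, 1137, 686 and 621. With the beta-actin measure as a covariate 133 genes were called, 127 of them rises. The changes of the 807 genes kept their size there (median ratio 1.00) while their SE grew by a median factor of 2.08.

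**Figure D1:**
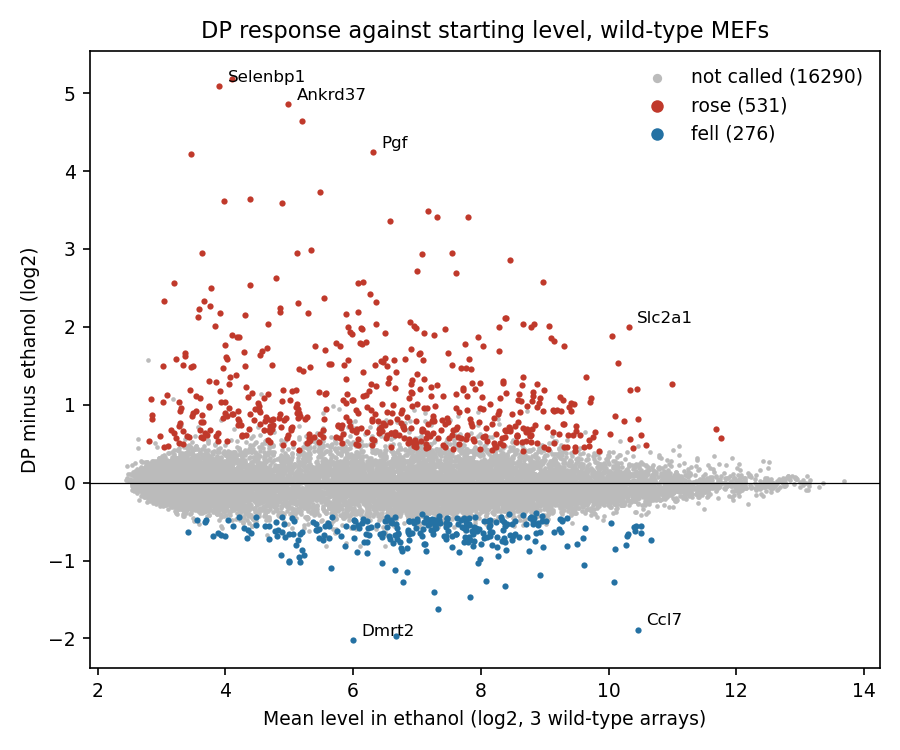
Each point is 1 of 17097 genes, with the mean log2 level in the 3 wild-type ethanol arrays on the x axis and the DP minus ethanol change (log2) on the y axis. The 531 rises (red) reach 5.18 and the 276 falls (blue) reach −2.02, and few points are coloured at the lowest and highest levels.

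The largest rises were in genes with a wide range of roles. Selenbp2 and Selenbp1, which encode selenium-binding proteins, led the list. Selenbp2 read 4.06, 4.00 and 4.25 in ethanol and 9.09, 9.29 and 9.48 under DP in lines 3, 4 and 5, a change of 5.18 ± 0.16 (36.4-fold, limma adjusted p = 2.29e-07). Selenbp1 read 3.87, 3.65 and 4.20 in ethanol and 8.91, 8.80 and 9.29 under DP, a change of 5.10 ± 0.11 (adjusted p = 3.44e-08). Both went from a low signal to a high one in all 3 lines, with more than 4 log2 between the highest ethanol and the lowest DP array. The genes are close paralogs with 1 probe set each, and signal shared between them cannot be told apart.

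Ankrd37, which encodes a small ankyrin repeat protein and is an established HIF target, read 5.17, 4.85 and 4.94 in ethanol and 9.73, 9.87 and 9.93 under DP, a change of 4.86 ± 0.12 (limma adjusted p = 8.29e-08). Ppp1r3c encodes a subunit that brings protein phosphatase 1 to glycogen, and it read 4.98, 4.93 and 5.66 in ethanol and 9.60, 9.88 and 10.03 under DP (4.65 ± 0.14, adjusted p = 2.11e-07). Pgf, placental growth factor, read 6.24, 6.33 and 6.34 in ethanol and 10.47, 10.64 and 10.55 under DP (4.25 ± 0.14, adjusted p = 2.87e-07). The lines were close to each other in all 3 genes, apart from a higher ethanol value of Ppp1r3c in line 5. Smtnl2, a smoothelin-like gene, rose by 4.22 ± 0.14, from 3.55, 3.24 and 3.60 in ethanol, close to blank control probe sets, to 7.64, 7.83 and 7.57. Next came Apln (3.73 ± 0.12), the ligand apelin, Car12 (3.65 ± 0.14), a membrane carbonic anhydrase, Bend5 (3.61 ± 0.14), Rab33a (3.59 ± 0.12), a small GTPase, Slc2a3 (3.49 ± 0.11), a glucose transporter, and Hilpda (3.42 ± 0.16), a lipid droplet protein. Their limma adjusted p values lay between 2.29e-07 and 2.43e-06, and none had overlapping groups.

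The falls were smaller. Dmrt2, a transcription factor of the doublesex family with a role in somite patterning, read 5.50, 6.02 and 6.48 in ethanol and 3.67, 4.03 and 4.24 under DP and fell by 2.02 ± 0.14 (limma adjusted p = 2.80e-05). Il6, the inflammatory cytokine interleukin 6, read 7.06, 6.37 and 6.60 in ethanol and 5.45, 4.50 and 4.17 under DP, a fall of 1.97 ± 0.16 (3.91-fold lower, adjusted p = 9.30e-05). Ccl7, a monocyte chemokine, read 10.69, 10.51 and 10.17 in ethanol and 8.62, 8.64 and 8.45 under DP (a fall of 1.89 ± 0.11, adjusted p = 1.14e-05). Every DP array lay below every ethanol array in these genes, and Il6 fell least in line 3. Ahr, the aryl hydrocarbon receptor, fell by 1.62 ± 0.15 in the probe set used. Cxcl1 fell by 1.46 ± 0.16, the Notch ligand gene Jag1 by 1.41 ± 0.11, and Snai2, a zinc finger repressor of epithelial genes, by 1.33 ± 0.16. The remaining 5 of the 12 largest falls were 9930012K11Rik, Ccl2, Rspo2, Chac1 and Ctu1, with changes from -1.28 to -1.14. Leaving out 1 line ended the limma call of Rspo2 (wild-type line 3, 4 or 5, adjusted p up to 0.0622). With no block for the line, limma gave an adjusted p of 0.0889 for Rspo2.

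**Figure D2:**
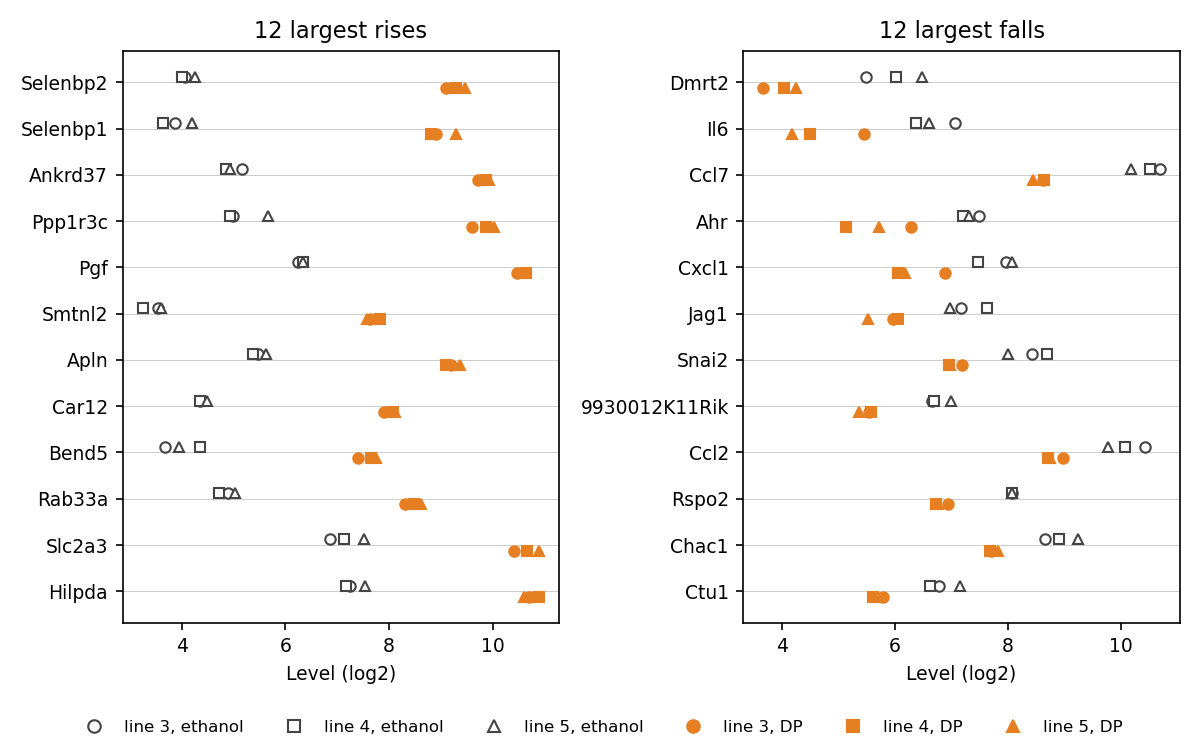
Log2 level (x axis) of the 12 largest rises (left) and the 12 largest falls (right) on each wild-type array, with open symbols for ethanol, filled symbols for DP and 1 symbol shape per MEF line. The symbols of the treatments do not overlap in any row, and the gaps are wider for the rises.

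HIF binds the core motif RCGTG, and the promoters of the 6 largest rises with a RefSeq entry are shown because this motif can be looked for in them. Each window runs from 250 bases before to 50 bases after the gene start on GRCm38.p6, is written 5′ to 3′ on the gene's strand, and has ACGTG or GCGTG in capitals wherever it occurs on either strand (so that CACGT and CACGC mark a core on the opposite strand, and CACGTG holds 1 core on each). The windows are chr3:94693323-94693622 on the plus strand for Selenbp2, chr3:94932833-94933132 on the plus strand for Selenbp1, chr8:45999801-46000100 on the minus strand for Ankrd37, chr19:36736555-36736854 on the minus strand for Ppp1r3c, chr12:85177264-85177563 on the minus strand for Pgf, where the first of 2 windows was used, and chr11:72411664-72411963 on the minus strand for Smtnl2.
Selenbp2: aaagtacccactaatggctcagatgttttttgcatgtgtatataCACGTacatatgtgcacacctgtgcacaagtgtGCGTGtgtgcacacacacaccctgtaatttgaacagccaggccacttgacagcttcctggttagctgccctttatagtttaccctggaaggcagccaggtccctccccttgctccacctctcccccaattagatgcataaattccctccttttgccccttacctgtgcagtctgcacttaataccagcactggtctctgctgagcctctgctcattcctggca
Selenbp1: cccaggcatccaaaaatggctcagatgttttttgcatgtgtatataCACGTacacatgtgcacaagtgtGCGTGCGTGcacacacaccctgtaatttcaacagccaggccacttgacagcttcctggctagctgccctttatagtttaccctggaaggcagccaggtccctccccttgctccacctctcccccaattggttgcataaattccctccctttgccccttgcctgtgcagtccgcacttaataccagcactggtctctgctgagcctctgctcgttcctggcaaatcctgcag
Ankrd37: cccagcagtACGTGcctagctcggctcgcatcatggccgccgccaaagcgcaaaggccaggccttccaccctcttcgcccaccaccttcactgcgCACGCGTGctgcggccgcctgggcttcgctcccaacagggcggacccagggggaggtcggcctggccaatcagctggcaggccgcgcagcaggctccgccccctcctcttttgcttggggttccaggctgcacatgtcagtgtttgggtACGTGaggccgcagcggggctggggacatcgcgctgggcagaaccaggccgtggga
Ppp1r3c: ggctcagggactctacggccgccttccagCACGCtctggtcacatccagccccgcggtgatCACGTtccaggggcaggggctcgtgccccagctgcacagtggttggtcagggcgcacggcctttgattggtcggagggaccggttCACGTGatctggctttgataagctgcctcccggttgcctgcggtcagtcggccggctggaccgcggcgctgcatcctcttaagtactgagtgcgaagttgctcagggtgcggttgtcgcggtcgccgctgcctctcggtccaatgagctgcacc
Pgf: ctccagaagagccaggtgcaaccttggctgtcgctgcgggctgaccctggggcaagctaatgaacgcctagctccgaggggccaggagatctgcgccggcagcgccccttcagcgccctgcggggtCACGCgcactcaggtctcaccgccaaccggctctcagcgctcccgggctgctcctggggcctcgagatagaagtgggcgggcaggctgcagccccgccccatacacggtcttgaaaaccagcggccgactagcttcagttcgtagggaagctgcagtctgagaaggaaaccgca
Smtnl2: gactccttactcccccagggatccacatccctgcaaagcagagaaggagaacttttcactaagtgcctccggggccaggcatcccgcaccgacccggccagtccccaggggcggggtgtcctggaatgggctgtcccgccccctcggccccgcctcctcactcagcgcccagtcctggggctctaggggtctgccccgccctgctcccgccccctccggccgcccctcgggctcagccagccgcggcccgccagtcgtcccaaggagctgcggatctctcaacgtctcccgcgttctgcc
Of the 6 windows, 5 held at least 1 core, with 4 matches in Ankrd37, 4 in Ppp1r3c, 3 in Selenbp1, 2 in Selenbp2 and 1 in Pgf. In Ankrd37 a CACGC and a GCGTG overlap, and in Ppp1r3c the sequence CACGTG occurs, which is the same on both strands.

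Across all measured genes the motif was common. A window was found for 13605 of the 17097 genes, and 55.5% of these windows held ACGTG or GCGTG on either strand. The share was 71.4% (295 of 413) among genes that rose, 73.9% among those that rose at least 2-fold and 59.6% among genes that fell. ACGTG alone was in 23.2% of all windows, 36.8% of windows of genes that rose, 42.0% of those that rose at least 2-fold and 25.4% of those that fell. GC content also differed between these sets. Its median was 58.7% over all windows, 63.3% in genes that rose and 61.7% in genes that fell. In genes that rose at least 2-fold it was 62.7%, below the value for all rises. The part of GC content in the shares was not tested. The AP-1 motif TGANTCA was in 6.45% of all windows and 3.15% of those of genes that rose, and TGACGTCA in 2.69% and 1.45% (6 windows). In genes that rose at least 2-fold the shares were 3.98% for TGANTCA and 2.84% for TGACGTCA. In genes that fell they were 2.82% and 4.23%. These are descriptions of letters in a 300-base window, which leaves out enhancers.

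Established HIF targets outside glycolysis formed the list with the highest median change (1.35). Of its 46 measured genes 37 rose and none fell, against 3.11% of all genes that rose. The list was drawn up with results of these data known, so its count is a description. Vegfa, the main growth factor for blood vessels, read 8.73, 8.98 and 8.78 in ethanol and 10.79, 10.86 and 10.93 under DP (2.03 ± 0.10, limma adjusted p = 3.97e-06). Ndrg1, a stress-responsive differentiation gene, read 8.35, 8.33 and 8.69 in ethanol and 11.28, 11.25 and 11.42 under DP (2.86 ± 0.11), and Ak4, a mitochondrial adenylate kinase, read 8.27, 8.18 and 8.42 in ethanol and 10.13, 10.30 and 10.42 under DP (1.99 ± 0.10). In each of these genes all DP arrays lay at least 1.5 log2 above all ethanol arrays. Adm, the vasodilator adrenomedullin, rose by 2.0 ± 0.12. Ero1a, which oxidises protein disulfide isomerase, rose by 2.57 ± 0.17, and the transcriptional repressor genes Rcor2 and Zfp395 by 2.18 ± 0.23 and 2.01 ± 0.17. At the low end of the list P4ha2, a collagen prolyl hydroxylase subunit, rose by 0.48 ± 0.11. Without line 5, 34 of the 46 were called as rises, and 35 with no block for the line. The limma call was lost on leaving out 1 line for P4ha2 (wild-type line 3, 4 or 5 or dKO line 5 or 6, adjusted p up to 0.231).

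Among genes of glucose uptake and glycolysis 9 of 20 rose (45.0%, against 3.11% of all genes) and none fell, with a median change of 0.51. They included transporters, hexokinases, regulators of the pathway and an aldolase. Slc2a1, the widespread glucose transporter, read 10.13, 10.28 and 10.54 in ethanol and 12.35, 12.33 and 12.24 under DP (1.99 ± 0.15, limma adjusted p = 4.10e-05). Hk2, an inducible hexokinase, read 9.04, 9.10 and 9.06 in ethanol and 11.06, 11.04 and 11.14 under DP (2.01 ± 0.10, adjusted p = 4.81e-06). Pfkfb3, an enzyme with a sugar phosphate product that activates phosphofructokinase, read 7.36, 7.49 and 7.80 in ethanol and 10.49, 10.61 and 10.39 under DP (2.95 ± 0.13, adjusted p = 2.43e-06). Pdk1, a kinase that inhibits pyruvate dehydrogenase, rose by 1.46 ± 0.11, the aldolase gene Aldoc by 1.42 ± 0.13, Hk1 by 1.27 ± 0.12 and Pfkp by 1.08 ± 0.11. Several enzymes of the trunk of the pathway were not called. Ldha read 12.04, 11.96 and 12.12 in ethanol and 12.23, 12.31 and 12.30 under DP (0.24 ± 0.10, adjusted p = 0.266), Pgk1 read 11.82, 11.90 and 12.09 in ethanol and 12.28, 12.26 and 12.23 under DP (0.32 ± 0.11, adjusted p = 0.187), and Gapdh changed by 0.08 ± 0.09 (adjusted p = 0.754). Every DP array of Ldha and Pgk1 lay above every ethanol array, but neither passed the test, and these probe sets were near the upper end of the signal range.

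Glycogen metabolism was represented by 24 genes, of which 7 rose (29.2%, against 3.11% of all genes) and none fell (median 0.20). They included genes of synthesis, its regulation and breakdown. Besides Ppp1r3c, the glycogen-targeting subunit genes Ppp1r3b and Ppp1r3e rose by 2.71 ± 0.10 and 1.46 ± 0.16. Ppp1r3g, a further such gene that was not on the list and was picked after its value was seen, rose by 1.51 ± 0.13 (limma adjusted p = 0.00015), from a mean of 3.34 in ethanol, close to blank control probe sets, to 4.85 under DP. Gbe1, the branching enzyme, read 5.07, 4.90 and 4.60 in ethanol and 7.11, 6.97 and 7.22 under DP (2.25 ± 0.14, limma adjusted p = 1.50e-05), and Gys1, glycogen synthase, read 7.58, 7.52 and 7.95 in ethanol and 9.04, 9.17 and 9.26 under DP (1.47 ± 0.13, adjusted p = 0.000163). Both were higher under DP in each line. Pgm1, which interconverts glucose phosphates, rose by 0.93 ± 0.14, and so did Pygl, the phosphorylase that breaks glycogen down, by 0.93 ± 0.12.

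Of 18 components of the HIF pathway itself 3 rose (16.7%, against 3.11% of all genes), none fell, and the median change was 0.02. Egln3, a prolyl hydroxylase, read 7.75, 7.76 and 7.88 in ethanol and 11.15, 11.18 and 11.30 under DP (3.41 ± 0.09, limma adjusted p = 1.54e-07), and Egln1, the main one, read 8.63, 8.51 and 8.82 in ethanol and 9.95, 9.97 and 10.10 under DP (1.35 ± 0.11, adjusted p = 6.36e-05). Vhl, the ubiquitin ligase subunit, read 7.60, 7.72 and 7.94 in ethanol and 9.43, 9.51 and 9.65 under DP (1.78 ± 0.11, adjusted p = 1.23e-05). The 3 genes that rose all encode proteins that remove HIF alpha subunits. The mRNAs of the subunits did not pass the test: Hif1a changed by 0.20 ± 0.16 (adjusted p = 0.614), Epas1 by 0.20 ± 0.14 (adjusted p = 0.56) and Arnt by 0.03 ± 0.09 (adjusted p = 0.915), with overlapping groups. Egln2 (-0.15 ± 0.11) and Hif1an (-0.20 ± 0.12), further hydroxylase genes of the pathway, also overlapped between treatments. HIF protein was not measured, and Crebbp, the gene for CBP, changed by 0.10 ± 0.15 (adjusted p = 0.797).

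Several dioxygenases that use the chelated iron rose at the mRNA level. Of 39 such genes 10 rose (25.6%) and 1 fell (2.56%), against 3.11% and 1.61% of all genes, with a median change of 0.14. Tet2, which oxidises methylcytosine in DNA, read 6.22, 5.80 and 5.18 in ethanol and 7.59, 7.46 and 7.51 under DP (1.79 ± 0.24, limma adjusted p = 0.00215). The histone demethylase genes Kdm3a and Kdm4b read 7.92, 8.16 and 7.39 and 5.30, 5.03 and 5.29 in ethanol and 9.54, 9.43 and 9.24 and 6.59, 6.62 and 6.71 under DP, changes of 1.58 ± 0.13 and 1.43 ± 0.12. DP arrays were alike across lines in all 3 genes, while the ethanol array of line 5 was the lowest for Tet2 and Kdm3a. Alkbh5, an RNA demethylase, rose by 1.06 ± 0.09, Jmjd6 by 1.14 ± 0.13, Kdm5b by 0.72 ± 0.10 and Tet3 by 0.49 ± 0.11. The collagen lysyl hydroxylase genes Plod2 and Plod1 rose by 1.36 ± 0.13 and 0.92 ± 0.11, and with P4ha2 they were the only called genes among 23 for collagen modification and cross-linking. Alkbh1 fell by 0.55 ± 0.11. Without line 5, 8 of the 10 rises were called.

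Secreted vascular factors included 8 rises (21.6%, against 3.11% of all genes) and no fall among 37 measured genes (median 0.05). Stc2 and Stc1, the stanniocalcin glycoprotein hormones, read 6.58, 6.46 and 6.68 and 6.72, 6.02 and 6.35 in ethanol and 9.85, 9.92 and 10.01 and 8.71, 8.57 and 8.77 under DP, changes of 3.35 ± 0.11 and 2.32 ± 0.15 (limma adjusted p = 2.70e-07 and 2.03e-05). The other probe set of Stc1 changed by -0.07 and was not called. Apln, the apelin ligand, read 5.46, 5.37 and 5.63 in ethanol and 9.20, 9.10 and 9.36 under DP. Hbegf, a ligand of the EGF receptor, rose by 1.75 ± 0.09, whereas Angpt2, a Tie2 ligand, changed by -0.06 ± 0.18 (adjusted p = 0.92). The list thus held large rises beside many members that did not pass.

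Of 21 genes for pH control 5 rose (23.8%, against 3.11% of all genes) and none fell (median −0.04). Car12 read 4.34, 4.34 and 4.48 in ethanol and 7.91, 8.07 and 8.12 under DP (limma adjusted p = 8.19e-07), without overlap in any line. The other probe set of Car12 changed by -0.12 and was not called. Car9, the best known HIF-induced carbonic anhydrase, read 4.37, 4.32 and 5.32 in ethanol and 5.79, 5.69 and 5.96 under DP (1.14 ± 0.17, adjusted p = 0.00397), with a higher ethanol value in line 5. Slc16a3, a lactate exporter, read 5.92, 6.23 and 6.44 in ethanol and 7.21, 7.35 and 7.38 under DP (1.12 ± 0.12, adjusted p = 0.000487). The bicarbonate cotransporter gene Slc4a4 rose by 0.84 ± 0.19 and the monocarboxylate transporter gene Slc16a1 by 0.57 ± 0.10. Without line 5, 3 of the 5 were called. Not called by limma without 1 line were Car9 (wild-type line 3, adjusted p 0.0529) and Slc4a4 (wild-type line 3, 4 or 5 or dKO line 6, adjusted p up to 0.255). The unblocked limma fit gave an adjusted p of 0.0996 for Slc4a4.

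Lipid storage genes rose in 7 of 24 cases (29.2%, against 3.11% of all genes), and none fell (median 0.05). Hilpda, an inhibitor of adipose triglyceride lipase, read 7.25, 7.17 and 7.53 in ethanol and 10.70, 10.90 and 10.60 under DP. Dgat2, which makes triglyceride, read 5.05, 5.22 and 5.13 in ethanol and 7.65, 7.09 and 7.57 under DP (2.30 ± 0.14, limma adjusted p = 1.18e-05). Vldlr, a lipoprotein receptor, read 7.27, 7.27 and 7.27 in ethanol and 9.15, 9.22 and 9.13 under DP (1.90 ± 0.09, adjusted p = 4.06e-06). The ethanol values of Vldlr were alike in the 3 lines, as were its DP values. Fabp4 and Lpin1, a fatty acid binding protein and a phosphatidate phosphatase, rose by 1.20 ± 0.16 and 1.01 ± 0.09. Fabp4 was also the only rise among 7 measured adipocyte markers. Without line 5, 5 of the 7 rises were called.

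Of 35 respiratory chain genes 2 rose (5.71%, against 3.11% of all genes): Ndufa4l2, a HIF-induced relative of a chain subunit, by 1.15 ± 0.17 (limma adjusted p = 0.00386), and Cox7a1 by 0.85 ± 0.13 (adjusted p = 0.00494). Of 29 mitophagy and autophagy genes 3 rose (10.3%). Bnip3, a mitophagy receptor, read 10.28, 10.20 and 9.96 in ethanol and 11.58, 11.63 and 11.81 under DP (1.53 ± 0.13, adjusted p = 8.83e-05), and its relative Bnip3l and the autophagy regulator Rubcn rose by 0.80 ± 0.11 and 0.70 ± 0.13. Among 23 genes of mTOR and energy stress 2 rose (8.70%) and 1 fell (4.35%, against 1.61% of all genes). Prkab2, an AMP kinase subunit, rose by 1.40 ± 0.11 and Ddit4, an mTORC1 inhibitor, by 1.19 ± 0.12, while the Ddit4 relative Ddit4l fell by 0.78 ± 0.13. When 1 line was left out, limma no longer called Ndufa4l2 (wild-type line 3, adjusted p 0.0519), Cox7a1 (wild-type line 4, adjusted p 0.0546), Rubcn (wild-type line 3, 4 or 5, adjusted p up to 0.134) and Ddit4l (wild-type line 4 or 5, adjusted p up to 0.087).

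Of 36 genes of iron handling and iron-sulfur clusters 2 rose (5.56%) and 1 fell (2.78%), against 3.11% and 1.61% of all genes, and the median change was −0.07. Tfrc, the transferrin receptor, read 9.45, 9.56 and 8.35 in ethanol and 10.25, 9.97 and 9.94 under DP (0.93 ± 0.22, limma adjusted p = 0.0438). Its ethanol value in line 5 was more than 1 log2 below those of the other lines, and the changes in lines 3, 4 and 5 were 0.80, 0.41 and 1.58. The ferritin genes Fth1 and Ftl1 changed by -0.03 ± 0.13 and -0.07 ± 0.10 (adjusted p = 0.935 and 0.786), and Slc40a1, the iron exporter ferroportin, by -0.81 ± 0.20 (adjusted p = 0.0507). Isca1, an iron-sulfur assembly factor, rose by 0.50 ± 0.10 and Slc25a28, a mitochondrial iron importer, fell by 0.59 ± 0.13. Leaving out 1 line ended the limma call of Tfrc (wild-type line 3 or 5 or dKO line 5 or 6, adjusted p up to 0.24), Isca1 (wild-type line 3, 4 or 5, adjusted p up to 0.152) and Slc25a28 (wild-type line 3, 4 or 5 or dKO line 6, adjusted p up to 0.197). Fitted without the line as a block, the limma result was an adjusted p of 0.0983 for Tfrc.

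Zinc and copper genes included 4 rises among 24 (16.7%, against 3.11% of all genes). Mt1, a metallothionein that binds zinc and copper, read 10.95, 10.90 and 11.12 in ethanol and 12.30, 12.15 and 12.33 under DP (1.27 ± 0.09, limma adjusted p = 4.26e-05), and it was higher under DP in every line. Atp7a, a copper pump, rose by 1.11 ± 0.26, and the zinc transporter genes Slc30a9 and Slc39a6 by 0.48 ± 0.11 and 0.45 ± 0.10. With each array centred on its median, Slc30a9 and Slc39a6 were no longer called, and 1 of the 4 rises, Mt1, was called without line 5. Of 26 genes of the NRF2 and thiol redox list 1 rose (3.85%), Gclc, the catalytic subunit for glutathione synthesis, by 1.11 ± 0.11 (adjusted p = 0.000255). Hmox1, heme oxygenase, read 8.82, 8.58 and 8.77 in ethanol and 9.02, 9.92 and 9.96 under DP (0.91 ± 0.23, adjusted p = 0.0582), with changes of 0.21, 1.34 and 1.19 in lines 3, 4 and 5. None of 19 heat shock genes was called by limma (4 at an unadjusted p under 0.05). The most changed were Hspa4l (0.65 ± 0.23, adjusted p = 0.197) and Hsp90aa1 (0.47 ± 0.27, adjusted p = 0.458), both low on the ethanol array of line 5. The limma call was lost on leaving out 1 line for Atp7a (wild-type line 3, 4 or 5 or dKO line 6, adjusted p up to 0.283), Slc30a9 (wild-type line 3, 4 or 5 or dKO line 5 or 6, adjusted p up to 0.231) and Slc39a6 (wild-type line 3, 4 or 5 or dKO line 5 or 6, adjusted p up to 0.243). The unblocked limma fit gave an adjusted p of 0.0829 for Atp7a.

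Early response transcription factors moved in both directions. Of 34 genes of this group 15 rose (44.1%) and 4 fell (11.8%), against 3.11% and 1.61% of all genes. The median change of the list was 0.26. Fosl1 and Fos, subunits of AP-1, read 6.79, 6.79 and 7.07 and 6.01, 6.14 and 6.28 in ethanol and 8.88, 8.91 and 9.04 and 7.84, 8.17 and 8.31 under DP, changes of 2.06 ± 0.17 and 1.97 ± 0.10 (limma adjusted p = 9.00e-05 and 4.75e-06). Ier3, an early response survival gene, read 10.04, 10.00 and 10.11 in ethanol and 11.82, 11.99 and 11.99 under DP (1.88 ± 0.11, adjusted p = 7.49e-06). Sik1, a salt-inducible kinase, rose by 1.77 ± 0.13, and Junb, another AP-1 subunit, by 0.96 ± 0.11. Egr1 did not pass (-0.08 ± 0.11, adjusted p = 0.786), and Nr4a1, an orphan nuclear receptor, fell by 0.64 ± 0.10 while its paralog Nr4a3 rose by 1.51 ± 0.10 in the probe set used. Of the 3 probe sets of Nr4a3 only 1 rose, and the lowest changed by -0.10. The falls were Nr4a1, Mafk, Ier2 and Srf. Without line 5, 13 rises and 1 fall of the list were called.

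Feedback inhibitors of growth factor signalling were split evenly, with 4 rises and 4 falls among 23 genes (17.4% each). Over all genes 3.11% rose and 1.61% fell. Spry3, a Sprouty inhibitor of receptor tyrosine kinases, read 3.41, 3.52 and 3.16 in ethanol and 5.09, 5.01 and 4.98 under DP (1.67 ± 0.11, limma adjusted p = 1.58e-05). Its signal was above the 95th percentile of the blank controls on 1 of the 3 ethanol arrays, so the size of this rise is uncertain. Spry1 read 8.62, 8.86 and 8.77 in ethanol and 7.82, 7.97 and 7.84 under DP and fell by 0.87 ± 0.12 (adjusted p = 0.00246). Spry4 (-0.66) and Dusp6 (-0.49) fell as well, and Dusp4, a MAP kinase phosphatase, and Spred2 rose by 1.01 ± 0.12 and 0.92 ± 0.10. Members of 1 family thus moved in opposite directions, without overlap of the groups in Spry1 or Spry3. Of 40 Klf, Sox, Fox and Cebp factors 3 rose (7.50%) and 4 fell (10.0%). Klf10 rose by 1.16 ± 0.10, Foxo3, a factor for quiescence and stress resistance, by 1.05 ± 0.10, and Sox9, a regulator of cartilage formation, by 1.01 ± 0.14. Foxs1 had the largest fall of this list (-0.76). Without line 5, limma called 3 rises and 2 falls of the feedback inhibitor list. Of the Klf, Sox, Fox and Cebp list it called 4 rises and 0 falls. Among the called genes of largest change per list, Foxs1 was not called by limma without 1 line (wild-type line 3, 4 or 5, adjusted p up to 0.151). With no block for the line, limma gave an adjusted p of 0.0527 for Spry1 and an adjusted p of 0.0981 for Foxs1.

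Clock genes included 5 rises and 2 falls among 21 (23.8% and 9.52%, against 3.11% and 1.61% of all genes). Ciart, a repressor of the clock, read 4.58, 4.71 and 5.09 in ethanol and 7.66, 7.54 and 7.07 under DP (2.63 ± 0.20, limma adjusted p = 4.96e-05). Bhlhe40, a repressor that is also a HIF target, read 9.06, 9.15 and 9.22 in ethanol and 10.96, 10.97 and 10.95 under DP (1.82 ± 0.11, adjusted p = 9.58e-06), and Rora, a nuclear receptor that activates Bmal1, read 6.12, 6.07 and 5.58 in ethanol and 7.92, 7.94 and 7.92 under DP (2.0 ± 0.23, adjusted p = 0.000875). DP values of Bhlhe40 and Rora were nearly the same in the 3 lines. Of the 5 probe sets of Rora 3 rose, and the lowest changed by -0.32. The kinase gene Csnk1d fell by 0.80 ± 0.12 in the probe set used. Of its 4 probe sets 2 fell, the highest changed by 0.50, and with the mean of all 4 the change was −0.21 (limma adjusted p = 0.40). In the Myc network Mxi1, a Myc antagonist, read 8.27, 8.22 and 8.64 in ethanol and 10.28, 10.47 and 10.72 under DP and rose by 2.12 ± 0.11 (adjusted p = 5.13e-06), Mxd1, another antagonist, rose by 0.62 ± 0.10, and Myc itself read 8.87, 8.83 and 8.85 in ethanol and 8.23, 8.18 and 7.91 under DP and fell by 0.74 ± 0.12 (adjusted p = 0.00737). Ribosome biogenesis genes had the lowest median of all lists (−0.18), with 2 falls among 36 (5.56%), Rrs1 (-0.69 ± 0.10) and Nop56 (-0.58 ± 0.12), and no rise. When 1 line was left out, limma no longer called Myc (wild-type line 5, adjusted p 0.0612), Mxd1 (wild-type line 3, 4 or 5, adjusted p up to 0.064) and Nop56 (wild-type line 3, 4 or 5 or dKO line 6, adjusted p up to 0.148).

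Cytokines and chemokines formed the list with the most falls. Of 41 genes 9 fell and 2 rose, against 1.61% and 3.11% of all genes, and the median change was −0.10. Cxcl1, a neutrophil chemokine, read 7.97, 7.46 and 8.07 in ethanol and 6.89, 6.05 and 6.17 under DP (a fall of 1.46 ± 0.16, limma adjusted p = 0.000562). Ccl2, the neighbour of Ccl7 on its chromosome and a monocyte chemokine, read 10.43, 10.07 and 9.77 in ethanol and 8.97, 8.71 and 8.75 under DP (a fall of 1.28 ± 0.15, adjusted p = 0.0011). Cxcl5, Csf1, Ccl20, Il15 and Clcf1 fell by 0.58 to 0.75. Against this direction, Lif, a cytokine of the interleukin 6 family, read 5.95, 6.03 and 5.95 in ethanol and 7.72, 7.99 and 7.95 under DP and rose by 1.91 ± 0.10 (adjusted p = 4.81e-06), and Tnfsf9 rose by 1.59 ± 0.14. Without line 5, 6 of the 9 falls and both rises were called. Of 21 NF-kB subunits and inhibitors 1 was called: Tnfaip3, the inhibitor A20, read 6.07, 6.30 and 6.03 in ethanol and 7.93, 7.88 and 7.95 under DP and rose by 1.78 ± 0.11 (adjusted p = 1.12e-05). The other probe set of Tnfaip3 changed by 0.31 and was not called. Macrophage markers were low on all arrays, with a list mean between 4.07 and 4.62 in ethanol and 4.27 and 4.54 under DP, and Ptprc, Itgam and Aif1 at the level of blank controls in both. Leaving out 1 line ended the limma call of Il15 (wild-type line 3, 4 or 5, adjusted p up to 0.0795).

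Ahr and its repressor moved in opposite directions in the probe sets used. Ahr read 7.49, 7.20 and 7.32 in ethanol and 6.29, 5.14 and 5.71 under DP (3.08-fold lower, limma adjusted p = 0.000181). Of its 2 probe sets only the probe set used fell, and the other changed by 0.005. Tiparp, an Ahr target whose product modifies and restrains Ahr, read 7.31, 7.33 and 6.61 in ethanol and 10.08, 9.91 and 10.09 under DP and rose by 2.94 ± 0.19 (adjusted p = 1.80e-05). No other gene of the 11 on the Ahr list was called, and its median change was 0.00. Of 32 nuclear receptor genes 4 rose (12.5%) and 1 fell (3.1%), against 3.11% and 1.61% of all genes. Nr4a3, Thra and Rara, the last 2 being receptors for thyroid hormone and retinoic acid, rose by 1.51 ± 0.10, 0.94 ± 0.11 and 0.83 ± 0.09. Only 1 of the 3 probe sets of Nr4a3 and 1 of the 2 of Thra rose.

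Called Notch genes ran from a ligand and a receptor to nuclear factors and targets. Jag1 read 7.17, 7.62 and 6.98 in ethanol and 5.98, 6.06 and 5.52 under DP (a fall of 1.41 ± 0.11, limma adjusted p = 6.24e-05) and the receptor gene Notch1 fell by 0.71 ± 0.14. The other probe set of Jag1 changed by -0.62 and was not called. Rbpj, the DNA-binding factor of the pathway, and its coactivator gene Maml1 rose by 0.72 ± 0.11 and 0.61 ± 0.10. Hey1, a target repressor, read 6.10, 6.23 and 6.51 in ethanol and 7.35, 7.57 and 7.73 under DP (1.27 ± 0.10, adjusted p = 5.62e-05), and Hey2 and Hes6 rose by 0.89 ± 0.14 and 0.83 ± 0.12. On the ethanol arrays of lines 4 and 5 Hey2 read 3.47 and 3.25. The 95th percentiles of the blank controls there were 3.54 and 3.44, so the size of the Hey2 rise is uncertain. Of 26 genes of the pathway 5 rose (19.2%) and 2 fell (7.69%), against 3.11% and 1.61% of all genes. The median was 0.10, and 4 rises and 1 fall were called without line 5. Of 52 TGF-beta and BMP genes 4 rose (7.69%) and 3 fell (5.77%). Id2, an inhibitor of helix-loop-helix factors, rose by 1.71 ± 0.12, Smad7, an inhibitory Smad, by 1.13 ± 0.12 and Fstl3, an activin antagonist, by 0.88 ± 0.12, while the pseudoreceptor gene Bambi fell by 1.03 ± 0.14. The Wnt pathway was near the background, with Fzd7 up (0.61 ± 0.11) and Rspo2 down (-1.26 ± 0.21) among 54 genes. Of 18 insulin-like growth factor genes Irs1, an adaptor of the receptor, fell by 0.81 ± 0.12, and no other was called. The limma call was lost on leaving out 1 line for Hey2 (wild-type line 3 or 4, adjusted p up to 0.0685), Fzd7 (wild-type line 3 or 4, adjusted p up to 0.113) and Irs1 (wild-type line 3 or 4, adjusted p up to 0.0557). With no block for the line, limma gave an adjusted p of 0.0548 for Hey2.

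Transcription factors of mesenchymal patterning fell in 5 of 48 cases (10.4%) and rose in 3 (6.25%), with a median of −0.09. Over all genes 1.61% fell and 3.11% rose. Besides Dmrt2 and Snai2, which read 8.42, 8.70 and 7.99 in ethanol and 7.19, 6.96 and 6.97 under DP, the falls were Osr1 (-0.95 ± 0.15), Msx1 (-0.93 ± 0.16) and Tbx18. The rises were Tbx4, Runx3 and Runx1, of which 1 was called without line 5. Hox genes had 1 fall among 34 (2.94%), Hoxb2 (-0.53 ± 0.11). Of 33 matrix protease and inhibitor genes Adamts9 rose by 0.91 ± 0.11, and Adamts4, Plaur and Adamts1 fell by 0.73 ± 0.12, 0.70 ± 0.15 and 0.63 ± 0.10. Not called by limma without 1 line were Osr1 (wild-type line 3, adjusted p 0.0661), Msx1 (wild-type line 3 or 5, adjusted p up to 0.0804), Hoxb2 (wild-type line 3, 4 or 5, adjusted p up to 0.148), Plaur (wild-type line 4 or 5 or dKO line 6, adjusted p up to 0.193) and Adamts1 (wild-type line 4 or 5, adjusted p up to 0.0528). Fitted without the line as a block, the limma result was an adjusted p of 0.153 for Hoxb2.

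Of 39 cyclin, CDK inhibitor and E2F genes 4 rose (10.3%) and 2 fell (5.13%), against 3.11% and 1.61% of all genes. The mean level of the list in ethanol was 7.84 to 7.93. Of all genes with an ethanol mean between 7 and 9, 4.31% rose and 3.46% fell. Ccng2, an unconventional cyclin linked to arrest, read 8.63, 8.88 and 8.48 in ethanol and 10.70, 10.80 and 10.61 under DP (2.04 ± 0.10, limma adjusted p = 3.97e-06). Ccne2, a G1/S cyclin, read 4.69, 4.78 and 4.22 in ethanol and 6.45, 6.27 and 6.02 under DP (1.68 ± 0.16, adjusted p = 0.000197). Cdkn1b, the CDK inhibitor p27, read 8.60, 8.76 and 8.57 in ethanol and 9.87, 9.96 and 9.87 under DP (1.26 ± 0.10, adjusted p = 6.07e-05), and Cdkn1c, p57, rose by 0.95 ± 0.12. The 4 rises thus held a G1/S cyclin beside CDK inhibitors. Of 41 DNA replication genes 1 rose (2.44%), Cdc6 by 0.48 ± 0.11, a call lost with median centring, and no other passed. Of 44 apoptosis and p53 genes 2 rose (4.55%) and 5 fell (11.4%). The falls included Gadd45a (-0.80 ± 0.10), Gadd45g (-0.66 ± 0.11), Bid (-0.66 ± 0.10) and Plk2 (-0.62 ± 0.09), while Gadd45b rose by 0.45 ± 0.10. The Gadd45b call was lost without line 5 and with median centring. Without line 5, limma called 0 rises and 3 falls of the apoptosis list and 4 rises and 0 falls of the cyclin list. When 1 line was left out, limma no longer called Cdc6 (wild-type line 3, 4 or 5 or dKO line 5 or 6, adjusted p up to 0.247) and Gadd45g (wild-type line 3 or 5, adjusted p up to 0.0612). The unblocked limma fit gave an adjusted p of 0.116 for Cdc6.

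In the ATF4 and endoplasmic reticulum stress list 3 of 43 genes rose (6.98%) and 2 fell (4.65%), against 3.11% and 1.61% of all genes. Ero1a and Vldlr, both also on other lists, rose, and so did Atf3 (0.59 ± 0.11). Chac1, an ATF4 and Chop target that degrades glutathione, read 8.65, 8.91 and 9.24 in ethanol and 7.71, 7.69 and 7.82 under DP and fell by 1.19 ± 0.13 (limma adjusted p = 0.000562). Of 6 alpha-arrestin genes Arrdc3, an adaptor for receptor degradation, read 6.05, 6.17 and 6.00 in ethanol and 8.61, 8.63 and 8.68 under DP and rose by 2.57 ± 0.14 (adjusted p = 5.24e-06), while Txnip, which binds thioredoxin and limits glucose uptake, read 9.15, 9.22 and 9.43 in ethanol and 8.69, 8.86 and 8.84 under DP and fell by 0.47 ± 0.10 (adjusted p = 0.0306). None of 33 deacetylase, bromodomain and acetyltransferase genes was called by limma (5 at an unadjusted p under 0.05). The nearest were Hdac5 (0.44 ± 0.13) and Hdac11 (0.40 ± 0.11), each at an adjusted p of 0.0961. Hdac5 was called in some of the alternative fits, named in the closing section. Leaving out 1 line ended the limma call of Atf3 (wild-type line 3 or 4, adjusted p up to 0.144) and Txnip (wild-type line 3, 4 or 5 or dKO line 5 or 6, adjusted p up to 0.193).

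**Figure D3:**
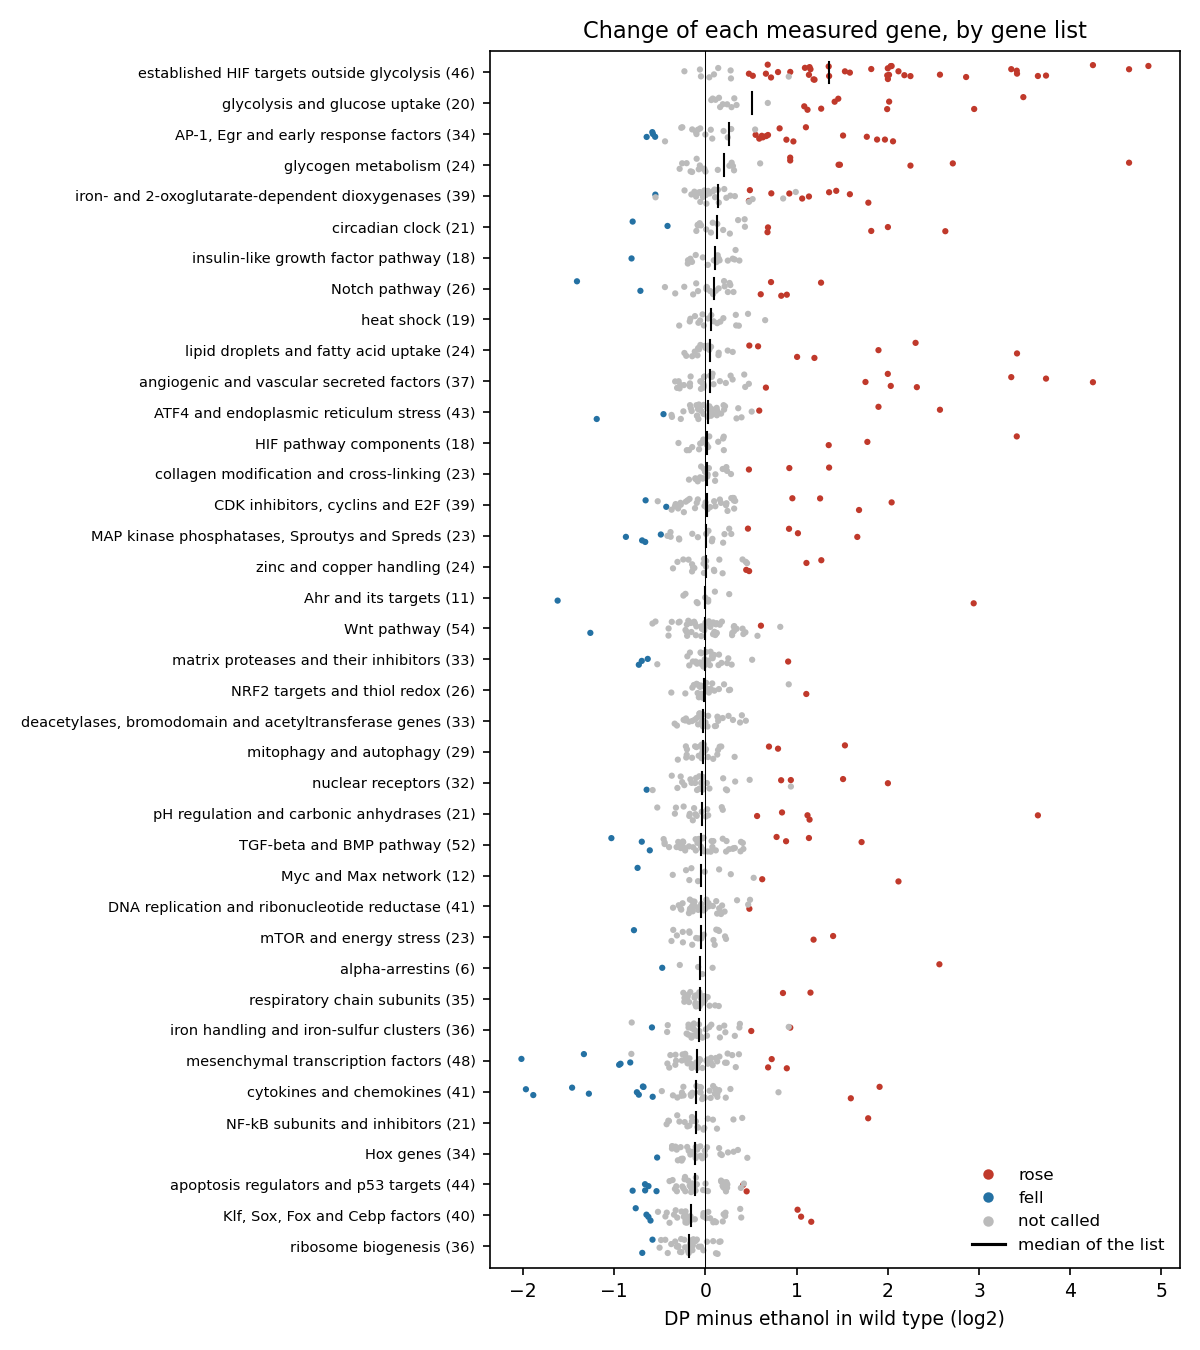
Change of each measured gene (DP minus ethanol, log2, x axis) in 39 gene lists, ordered by the median of the list (black bar), with the number of measured genes in parentheses. Genes that rose are red, genes that fell blue and genes not called grey. The HIF target and glycolysis lists have the highest medians, 1.35 and 0.51, and ribosome biogenesis the lowest, −0.18.

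Of the 807 called genes 187 were on a list and 620 on none. The following were picked after their values were seen, for the size of their change. Me2, mitochondrial malic enzyme, rose by 2.99 ± 0.15, Fam117b by 2.69 ± 0.12 and Dixdc1, a Dishevelled-related protein gene, by 2.58 ± 0.21. Cacna1h, a T-type calcium channel, rose by 2.53 ± 0.12, the receptor gene Gpr35 by 2.50 ± 0.18, Ascl2, a basic helix-loop-helix factor, by 2.27 ± 0.13, and Sap30, a subunit of the Sin3 corepressor, by 2.11 ± 0.11. Their limma adjusted p values were 4.81e-06, 1.74e-06, 7.30e-05, 3.97e-06, 3.49e-05, 8.88e-06 and 4.75e-06. These rises were as large as those of many established HIF targets. Krt19, a keratin, read 7.16, 6.59 and 7.10 in ethanol and 9.20, 8.87 and 8.82 under DP and rose by 2.01 ± 0.13 (adjusted p = 1.93e-05), the only call among 10 epithelial markers. That list had a mean level between 4.56 and 4.73 in ethanol and 4.66 and 4.79 under DP.

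Some genes crossed the detection limit, taken on each array as the 95th percentile over 17 blank controls (3.28 to 3.54). Of 3167 genes at or below it on all 3 ethanol arrays, 16 rose, and 14 were above it on all 3 DP arrays (12 with the 99th percentile). Amz1, a metalloprotease gene, read 2.99, 3.06 and 3.06 in ethanol and 5.21, 5.22 and 5.65 under DP, at least 3.85-fold higher against the detection limit (limma adjusted p = 5.49e-06). Prr15 read 2.95, 3.26 and 2.84 in ethanol and 4.22, 4.70 and 4.62 under DP, at least 2.13-fold higher (adjusted p = 6.60e-05), and Galr2, a galanin receptor, read 3.11, 2.98 and 3.16 in ethanol and 3.88, 4.20 and 4.56 under DP, at least 1.73-fold higher (adjusted p = 0.000847). Of the 4 probe sets of Prr15 only 1 rose, and the lowest changed by -0.02. A2m and Rundc3b were at least 1.74-fold and 1.55-fold higher, and 2900055J20Rik, Cbln3 and Tafa2 at least 1.41-fold, 1.23-fold and 1.19-fold. The bound sets the mean under DP against the higher of the limit and the gene's own value on each ethanol array. In the other direction Il15, a cytokine for lymphocytes, read 3.81, 3.80 and 3.82 in ethanol and 3.08, 3.19 and 3.12 under DP, at least 1.35-fold lower, and Krt16 at least 1.23-fold lower. With the 99th percentile 3 genes met the opposite pattern. The limma call was lost on leaving out 1 line for Tafa2 (wild-type line 3, adjusted p 0.0551) and Krt16 (wild-type line 3, 4 or 5 or dKO line 5 or 6, adjusted p up to 0.275).

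The 3 lines responded alike in direction and less alike in size. Over all genes the changes correlated at 0.68 between lines 3 and 4, 0.55 between lines 3 and 5 and 0.52 between lines 4 and 5, a description over genes that share arrays and normalisation. The median rise was 0.90, 0.87 and 0.98 in lines 3, 4 and 5, and the median fall −0.54, −0.59 and −0.69. Line 5 had the largest change for 240 of the 531 rises and 168 of the 276 falls. The widest spread over lines was in the following genes. Clcn3, a chloride and proton exchanger, read 5.57, 5.72 and 4.08 in ethanol and 8.28, 7.96 and 7.96 under DP, with changes of 2.71, 2.24 and 3.88. Homer1, a scaffold protein gene, read 7.40, 7.46 and 6.46 in ethanol and 8.99, 8.95 and 9.14 under DP, and Dubr, a long noncoding RNA, read 6.97, 6.93 and 5.69 in ethanol and 8.21, 7.91 and 7.95 under DP. In all 3 the ethanol array of line 5 was low and the DP arrays were close together. Ptgfr, the prostaglandin F receptor, differed in another way: it read 4.15, 5.03 and 5.82 in ethanol and 4.05, 3.76 and 4.16 under DP, with ethanol values that differed between lines and changes of -0.10, -1.28 and -1.66. Ctnnal1, a catenin-like gene, rose by 1.23 ± 0.20, with changes of 0.79, 0.93 and 1.97. Without line 5, 435 of the 807 genes were called, all 807 kept their sign, and the median ratio of the change to that with line 5 was 0.96. Not called by limma without 1 line were Dubr (wild-type line 3, 4 or 5 or dKO line 6, adjusted p up to 0.277) and Ptgfr (wild-type line 4 or 5 or dKO line 5 or 6, adjusted p up to 0.277). The unblocked limma fit gave an adjusted p of 0.0717 for Dubr and an adjusted p of 0.0909 for Ptgfr.

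**Figure D4:**
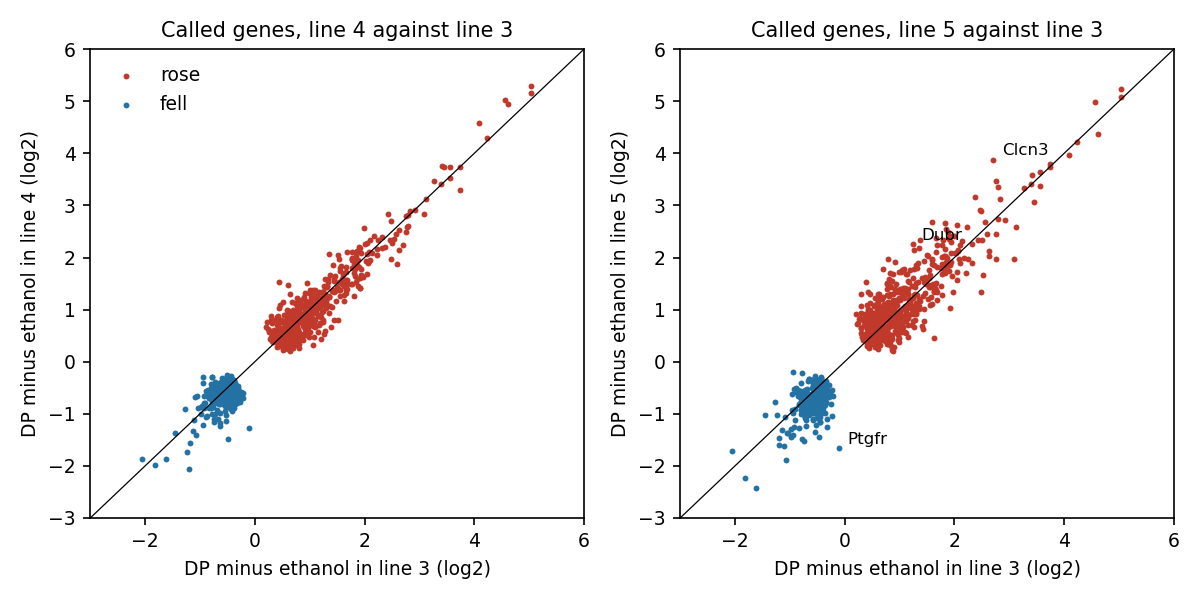
DP minus ethanol (log2) of the 807 called genes in line 4 (left) and line 5 (right) against line 3, with rises in red, falls in blue and the line of equal change in black. All genes lie in the quadrant of equal sign, and the scatter is wider for line 5, where Clcn3 and Ptgfr lie off the diagonal.

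Among markers of other cell types there were calls for epithelium (Krt19), erythroid cells, cartilage and adipocytes (Fabp4), all of them rises. No marker of macrophages, endothelium, skeletal muscle or neural cells was called by limma (1, 0, 1 and 1 of them at an unadjusted p under 0.05). The most changed of these were Adgre1 and Aif1, Flt1 and Esam, Mylpf and Des, and Tubb3 and Sox2, with changes from -0.62 to 0.27. Tubb3 was called as a fall in both fits of the wild-type arrays alone, with and without the block for the line. Tek and Tie1 for endothelium and Myod1 and Myf5 for muscle were at the level of blank controls in both treatments. Other members of these lists were well above it. The means in ethanol and under DP were 8.53 and 8.78 for Flt1 and 8.39 and 8.19 for Des. For the neural marker Tubb3 they were 7.75 and 7.14. Of 7 measured erythroid markers Epor, the erythropoietin receptor, rose by 0.74 ± 0.16 (limma adjusted p = 0.029), and the list mean was 3.60 to 3.65 in ethanol and 3.62 to 4.92 under DP, with the highest value on the DP array of line 5. Of 9 cartilage markers Sox9 and Acan, a cartilage proteoglycan, rose, Acan by 0.54 ± 0.10 with overlapping groups. Col2a1, the defining cartilage collagen, changed by -0.25 ± 0.10 (adjusted p = 0.247). In bulk cultures fewer cells of a type and less RNA per cell cannot be told apart. When 1 line was left out, limma no longer called Epor (wild-type line 3, 4 or 5 or dKO line 5, adjusted p up to 0.196) and Acan (wild-type line 3, 4 or 5, adjusted p up to 0.157). With no block for the line, limma gave an adjusted p of 0.443 for Acan.

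Genes that rose had a median length of 27751 bases, against 11940 bases for genes that fell and 20116 bases for all measured genes with a length in the gene table. Calls were also found side by side. Of 17031 neighbouring pairs of measured genes 42 both rose, 5 both fell and 15 went in opposite directions. The number of pairs to be met from the shares of calls alone (3.11% rose, 1.61% fell) was not computed. These counts are thus no result about neighbours. The pairs included Kdm3a with Reep1 (1.58 and 2.37), Adm with Ampd3 (2.0 and 1.55), Ak4 with Jak1 (1.99 and 0.46) and Ccl2 with Ccl7, picked after their values were seen. Slc16a3 rose by 1.12 while its neighbour Csnk1d fell by 0.80 in the probe set used. The longest run was of Ifi204, Ifi203, Ifi202b and Ifi205, interferon-inducible DNA sensor genes, which rose by 1.73, 1.15, 1.28 and 0.74. They are near-identical paralogs, so their probe sets may share signal, and their pairs are among the 42.

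A difference between the DP responses of wild-type and dKO cells was called for few genes. Genes without a called difference are not shown to respond equally. The design tests whether the DP response differs without CBP and p300, and the difference was called for 89 genes (0.521%). Of these, 78 rose in wild type with a rise larger there. Leaving out wild-type line 3, 4 or 5 gave 46, 45 and 58 called differences, and leaving out dKO line 5 or 6 gave 44 and 38. Without dKO line 1 more than 89 were called. In dKO 267 genes (1.56%) were called, and 204 of the 807 wild-type calls were called there the same way. Selenbp1 rose by 5.10 ± 0.11 in wild type and 1.30 ± 0.11 in dKO, a difference of 3.80 ± 0.15 (limma adjusted p = 1.23e-05). Car12 rose by 3.65 ± 0.14 and 0.93 ± 0.14 (difference 2.71 ± 0.20, adjusted p = 0.000744). Fos changed by 1.97 ± 0.10 in wild type and 0.17 ± 0.10 in dKO (difference 1.80 ± 0.14, adjusted p = 0.000744). The wild-type rise was the larger one in all 3 genes. Pfkfb3 went the other way, with 2.95 ± 0.13 in wild type and 4.36 ± 0.13 in dKO (adjusted p = 0.0126). Ankrd37 rose by 4.86 ± 0.12 and 4.20 ± 0.12, a difference of 0.65 ± 0.17 that did not pass (adjusted p = 0.278). Ahr and Il6, which fell in wild type, changed by 0.08 ± 0.15 and -0.10 ± 0.16 in dKO, and both differences were called (adjusted p = 0.0074 and 0.0074). The Ahr values are of 1 of its 2 probe sets.

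**Figure D5:**
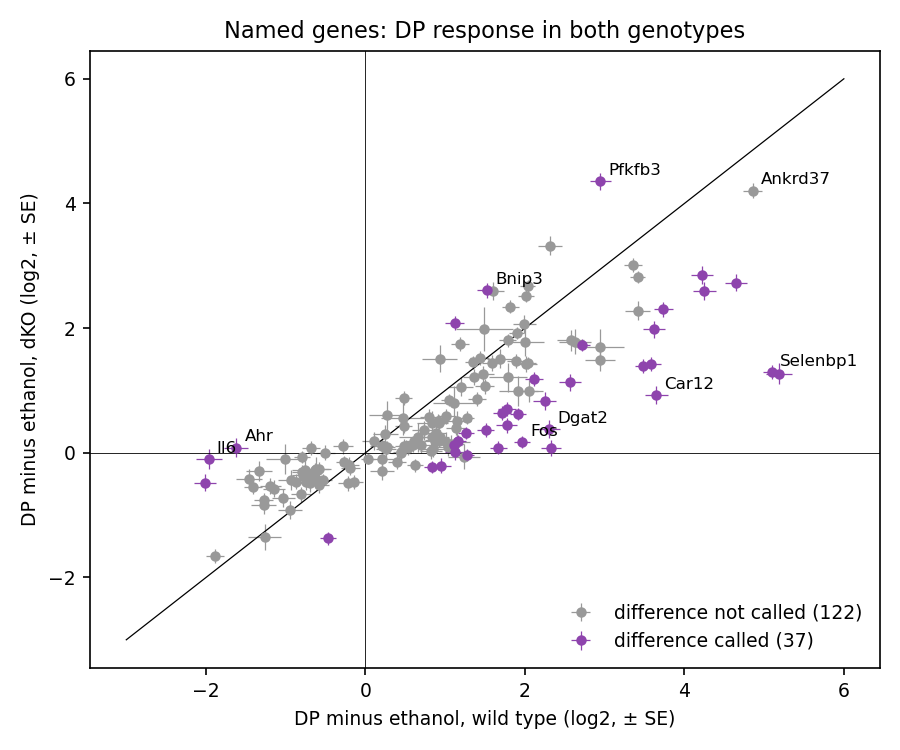
DP minus ethanol change (log2, with SE bars) of 159 genes, chosen mostly for the size of their wild-type change, in wild type (x axis) and dKO (y axis), with the line of equal change in black. The 37 genes whose difference was called by limma are purple. Selenbp1 and Car12 lie below the line and Pfkfb3 and Bnip3 above it, and because of how the genes were chosen the share below the line is no result.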

How the data were processed

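The deposited values are log2 probe set signals that the authors made by RMA, per the submitters' processing notes, which name Affymetrix Expression Console 1.1. For the genome build behind the array design, the sources used here give none. Of 45141 probe sets, 104 controls, 551 with several gene symbols and 15588 with none were left out of the gene tests. Symbols of 28689 of the 28898 probe sets with 1 symbol were updated through the gene identifier. Each of 17097 genes was read from 1 probe set, the one of highest mean across the 12 arrays (7180 genes had a choice). Of the 807 called genes 369 had more than 1 probe set. None had a probe set called the other way, but for some only part of the probe sets were called. RMA sets all arrays to 1 distribution, so a general shift of RNA amount is not visible.

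Changes were tested with limma 3.58.1 (R 4.3.3; lmFit, eBayes) on all 12 arrays, with MEF line as a block and 1 DP effect per genotype. The dKO arrays enter only the estimate of the spread of the wild-type effect, and 4 residual degrees of freedom were joined by 5.25 prior ones. Adjusted p values are Benjamini-Hochberg over 17097 genes, called under 0.05. The labels give the same numbered line both treatments, which is the pairing. Deviations from the group means correlated within lines 3, 4 and 5 at 0.42, 0.06 and 0.33 and within dKO lines 1, 5 and 6 at 0.04, 0.32 and 0.36, over 8917 genes. Lines are separate cultures, and how many embryos each holds is not stated. The number of arrays limits the precision. On simulated data with 17097 genes the wild-type test recovered 92% of 50 rises and 86% of 50 falls of 1 log2, all changes of 2 log2, and made 11 false calls. The simulated noise was independent between genes and arrays, without an outlying array or a shared shift with treatment. These figures thus do not give the recovery or the false calls in the measured data.

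Members and gene lists (39 pathway lists and 9 marker lists, 1196 of 1316 genes measured) were chosen with earlier results of these data known, and lists were counted, not tested. Named genes were taken from the 12 genes that rose most, the 12 that fell most, up to 4 called genes of largest change per list (or 2 where none passed), HIF pathway genes, Vegfa, Tfrc and Crebbp, up to 8 rises and 4 falls that cross the blank level and the 6 with the largest spread over lines. Promoters and gene lengths came from RefSeq on GRCm38.p6. Tables and figures used Python 3.11.15, pandas 2.3.3, numpy 2.4.6 and matplotlib 3.10.9. Alternatives were no block, only wild-type arrays, cyclic loess, median centring, array weights, robust eBayes, an intensity trend, a filter on the dimmest 40% of genes, other probe set rules, a 1.5-fold minimum, a beta-actin covariate and leaving out each line. A fit that drops 2 ethanol arrays (line 5 of wild type, line 1 of dKO) was added after seeing the data.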

Additional observations from a re-analysis of the deposited data

Results flagged for a closer look

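For 37 named genes the limma test of the difference between the wild-type and the dKO response to DP passed at an adjusted p under 0.05, and the difference, wild type minus dKO in log2, follows each name. Rises larger in wild type by more than 1.5 were those of Selenbp2 (3.91), Selenbp1 (3.80), Car12 (2.71), Rab33a (2.16), Slc2a3 (2.09), Dgat2 (1.93), Ppp1r3c (1.92), Fos (1.80), Pgf (1.65) and Bend5 (1.63). Smaller differences of the same kind were found for Arrdc3 (1.44), Apln (1.43), Gbe1 (1.42), Smtnl2 (1.36), Sik1 (1.33), Mt1 (1.31), Lif (1.29), Cdkn1c (1.16), Nr4a3 (1.14), Id2 (1.07), Vhl (1.07), Rara (1.06), Ppp1r3b (0.98), Gclc (0.98), Klf10 (0.97), Cdkn1b (0.94) and Mxi1 (0.93). The Nr4a3 value is of 1 of its 3 probe sets. For Amz1 (2.25) and Galr2 (1.11) the signal was at or below the detection limit on all 3 wild-type ethanol arrays, and for Spry3 (1.59) on 2 of the 3, so the size of their differences is uncertain and they are not ranked with the others. The first group spans secreted factors, transporters and enzymes, and the second includes the CDK inhibitors and nuclear receptors. The rise was smaller in wild type for Pfkfb3 (-1.41), Slc16a3 (-0.96) and Bnip3 (-1.08), the first an activator of glycolysis, the second a lactate exporter and the third a mitophagy receptor. Falls were larger in wild type for Dmrt2 (-1.54), Il6 (-1.87) and Ahr (-1.70), and the fall of Txnip (0.90) was smaller there. The beta-actin 3' minus 5' signal was 0.397 to 0.602 on the dKO arrays and 0.228 to 0.378 on the wild-type arrays, and its part in these differences was not tested.

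Probe sets without a gene symbol, which the gene tests did not use, also responded. Of 15588 such probe sets 264 (1.69%) were called by limma for DP in wild type, 211 of them higher and 53 lower. The share is below the 4.72% of named genes. They are unnamed in the annotation used here.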

How the results depend on the processing

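Of 139 called genes selected by the naming rule, 61 kept their direction and side of the threshold under every alternative, and none of the 139 changed sign. The count of 807 calls (531 rises, 276 falls) became 1244 with array weights (521 falls) and 133 with the beta-actin covariate (127 rises, 6 falls). Leaving out a line gave 387 to 1137 calls, 310 to 694 rises and 77 to 443 falls. A minimum change of 1.5-fold left 154 falls. The 89 called differences between genotypes became 268 with array weights, and 38 to 96 without a line. With no block for the line 808 genes were called, 704 of them shared with the 807. Genes that were not called changed sign as follows: Postn to −0.080, Pdgfrb to 0.054 and Crebbp to −0.10 with the beta-actin covariate, Arnt to −0.027 with median centring, and Epas1 to −0.0029 when 2 ethanol arrays (line 5 of wild type, line 1 of dKO) were dropped. The cause was not tested for these changes, except that leaving out a line removes arrays. With the mean of all probe sets limma no longer called Tfrc (adjusted p = 0.0901), Atp7a (0.0508), Csnk1d (0.40), Mxd1 (0.127) and Msx1 (0.0613). Calls were also gained. Tubb3 was called with only the wild-type arrays. Hdac5 was called with array weights, without dKO line 1, and when 2 ethanol arrays (line 5 of wild type, line 1 of dKO) were dropped. Median centring moved the median change of all genes from −0.03 to −0.08. Near the blank level (3.28 to 3.54) the arrays cannot order genes, and a fitted change there is no bound.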
